A study of Mus musculus with 9 samples.

Results

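Glutathione is the main low-molecular-weight thiol of mammalian cells, and 7 genes that make, recycle, use or export it or bring in its cystine were followed in RAW264.7 macrophages. They are Gclc, Gclm, Gss, Gsr, Slc7a11, Glrx and Abcc1, which were chosen by gene name from the 54532 genes measured, and all 7 passed the filter on low values. RAW264.7 is a mouse macrophage line, which the labels give as wild type and as derived from ascites. RNA-seq libraries were prepared from untreated control cells, from cells given LPS (1 μg/ml), and from cells given LPS (1 μg/ml) together with G-CDs (400 μg/ml), the treated cells for 6 h, with 3 libraries in each group. LPS is an endotoxin shed from bacterial envelopes, and G-CDs are carbon dots made from the plant Glycyrrhiza that the study designed as mimics of superoxide dismutase. For the LPS + G-CDs group the sample titles name G-CDs while the treatment label gives LPS alone, and no library of cells given G-CDs without LPS was analysed here. The question put to these libraries is how G-CDs alter gene expression in cells exposed to LPS.

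Glutathione is built in 2 steps. Glutamate-cysteine ligase, made of a catalytic subunit (Gclc) and a modifier subunit (Gclm), joins glutamate to cysteine, and glutathione synthetase (Gss) adds glycine. Cysteine is the limiting precursor, and macrophages take it up largely as cystine through system xc-, an exchanger of cystine for glutamate formed by the light chain Slc7a11 (xCT) and the heavy chain Slc3a2. Glutathione reductase (Gsr) returns oxidized glutathione to its reduced form with NADPH, glutaredoxin (Glrx) uses glutathione to reduce disulfides between glutathione and proteins, and Abcc1 (MRP1) pumps oxidized glutathione and glutathione conjugates out of the cell. The transcription factor Nrf2, held back by Keap1, is known to drive several of these genes through antioxidant response elements, and Atf4 is known to drive Slc7a11.

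The promoters are shown because each of the 3 members with the largest changes has a motif of a different stress-responsive factor family just upstream of its start. The display was thus selected for its matches, and a link between motifs and changes was not tested. The windows hold 250 bases up to the gene start that RefSeq annotates on GRCm38.p6, written 5′ to 3′ on the strand of the gene, at chr3:122245307-122245556 (plus strand) for Gclm, chr3:50443614-50443863 (minus strand) for Slc7a11 and chr13:75839635-75839884 (plus strand) for Glrx. For Glrx and Slc7a11 this start differs slightly from the one in the deposited coordinates, so the last bases of these windows fall within the gene as given below. Windows were found for 4 of the 7 members (Gclm, Gss, Slc7a11 and Glrx). Capitals mark matches to the antioxidant response element core (TGACNNNGC), the AP-1 site (TGANTCA) or the C/EBP-ATF element (TGATGNAA), searched on both strands.
Gclm: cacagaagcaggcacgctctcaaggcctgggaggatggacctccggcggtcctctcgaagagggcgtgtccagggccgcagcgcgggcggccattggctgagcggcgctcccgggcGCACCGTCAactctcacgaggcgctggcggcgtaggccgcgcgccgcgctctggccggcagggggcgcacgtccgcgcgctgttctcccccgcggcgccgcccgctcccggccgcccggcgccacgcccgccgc
Slc7a11: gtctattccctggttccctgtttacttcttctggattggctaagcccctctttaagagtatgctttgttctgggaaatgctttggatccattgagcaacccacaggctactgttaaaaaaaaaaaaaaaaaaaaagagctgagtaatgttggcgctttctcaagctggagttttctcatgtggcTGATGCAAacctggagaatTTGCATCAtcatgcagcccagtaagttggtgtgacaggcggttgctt
Glrx: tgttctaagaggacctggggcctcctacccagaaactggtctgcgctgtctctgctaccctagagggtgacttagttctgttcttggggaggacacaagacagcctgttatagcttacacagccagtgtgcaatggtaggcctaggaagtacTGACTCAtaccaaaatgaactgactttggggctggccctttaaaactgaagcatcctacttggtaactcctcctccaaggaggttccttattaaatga
In Gclm, the antioxidant response element core lay on the minus strand and began 134 bases before the start. In Slc7a11, 2 C/EBP-ATF elements faced each other, beginning 66 and 47 bases before the start. In Glrx, 1 AP-1 site began 98 bases before the gene start at which this window ends, and the window of a further annotated start 1 base downstream held the same match. The window of Gss held none of these motifs. Among all 32851 promoters of this length, 10.2% held the antioxidant response element core, 6.7% the AP-1 site and 3.5% the C/EBP-ATF element. The GC box (GGGCGG), not capitalised, occurred 3 times in the Gclm window and in 32.7% of all windows. The matches describe letters and were not tested for binding.

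Each library held between 14752400 and 17312255 reads on genes, and the members were covered by 200 reads (Glrx, control replicate 1) to 10651 reads (Slc7a11, LPS + G-CDs replicate 1). Libraries differed in ways the groups do not explain, since values of long genes varied between libraries of the same group. In the 10% longest of the tested genes (median 11447 bases), the median deviation from the group mean on the log2 scale was 0.328 in LPS + G-CDs replicate 1 and -0.313 in replicate 3. It was 0.123, 0.152 and -0.27 in the control libraries, and between -0.038 and 0.021 in the LPS libraries. The macrophage markers were detected for 9 of 10 genes, with Mertk listed at 0 in every library, and their summed FPKM was 2660 to 3660 in control, 3870 to 4090 in LPS and 3250 to 5340 in LPS + G-CDs libraries. Of the 9 tested, 4 (Cd14, Adgre1, Ptprc and Itgam) were higher and 2 (Csf1r and Lyz2) lower with LPS (adjusted p 7.2e-05 to 0.048 in limma), beside 15.8% and 15.6% of all tested genes, so its sum also moved with treatment. Marker lists of T cells, B cells, epithelial cells, fibroblasts, hepatocytes and endothelial cells summed to at most 1.21 FPKM in any library. These are bulk samples, so RNA per cell and numbers of cells cannot be told apart, and the labels do not say that the libraries came from separate cultures, so p-values measure the spread between these samples.

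Values are FPKM, reads scaled to gene length and library size. The length is that of the deposited gene model, which exceeds the longest annotated transcript to a differing degree. It is 15092 against 6792 bases for Abcc1, 13922 against 9223 for Slc7a11, 5915 against 3258 for Gss and 2754 against 2673 for Gsr. Levels of different genes, and their order, therefore depend on these lengths, while ratios of FPKM of 1 gene between groups do not. Fold changes are differences in log2(FPKM + 1) from limma, as are all adjusted p-values, over 11585 tested genes, with a Benjamini-Hochberg adjusted p under 0.05 as the threshold, and this scale understates the change of genes with low values.

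LPS raised Slc7a11, Glrx and Abcc1 and lowered Gclc. Among all tested genes, 15.8% were called higher and 15.6% lower with LPS, against 3 and 1 of the 7 members. With G-CDs added to LPS, only Gclm of the members passed, at about 4 times its level with LPS alone. In that comparison 0.25% of all tested genes were called higher, against 1 of 7 members. The paper's threshold is p under 0.01, taken here as unadjusted, and over 1.5-fold, judged here on the log2(FPKM + 1) scale. At it 1.24% were higher, against 2 of 7 members (Gclm and Slc7a11). Compared with control cells, LPS + G-CDs cells had 6 members higher and 0 lower (12.8% and 12.4% of all tested genes), with Gclc as the exception. The calls of Gss and Gsr in that comparison, and of Abcc1 and Gclc with LPS, depended on the processing, as given below. The median log2 fold change of the members was 0.25 for LPS against control, 0.37 for LPS + G-CDs against LPS and 1.25 for LPS + G-CDs against control, beside 0.016, 0.017 and 0.025 over all tested genes. The comparisons share libraries, so they do not support one another.

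**Figure D1:**
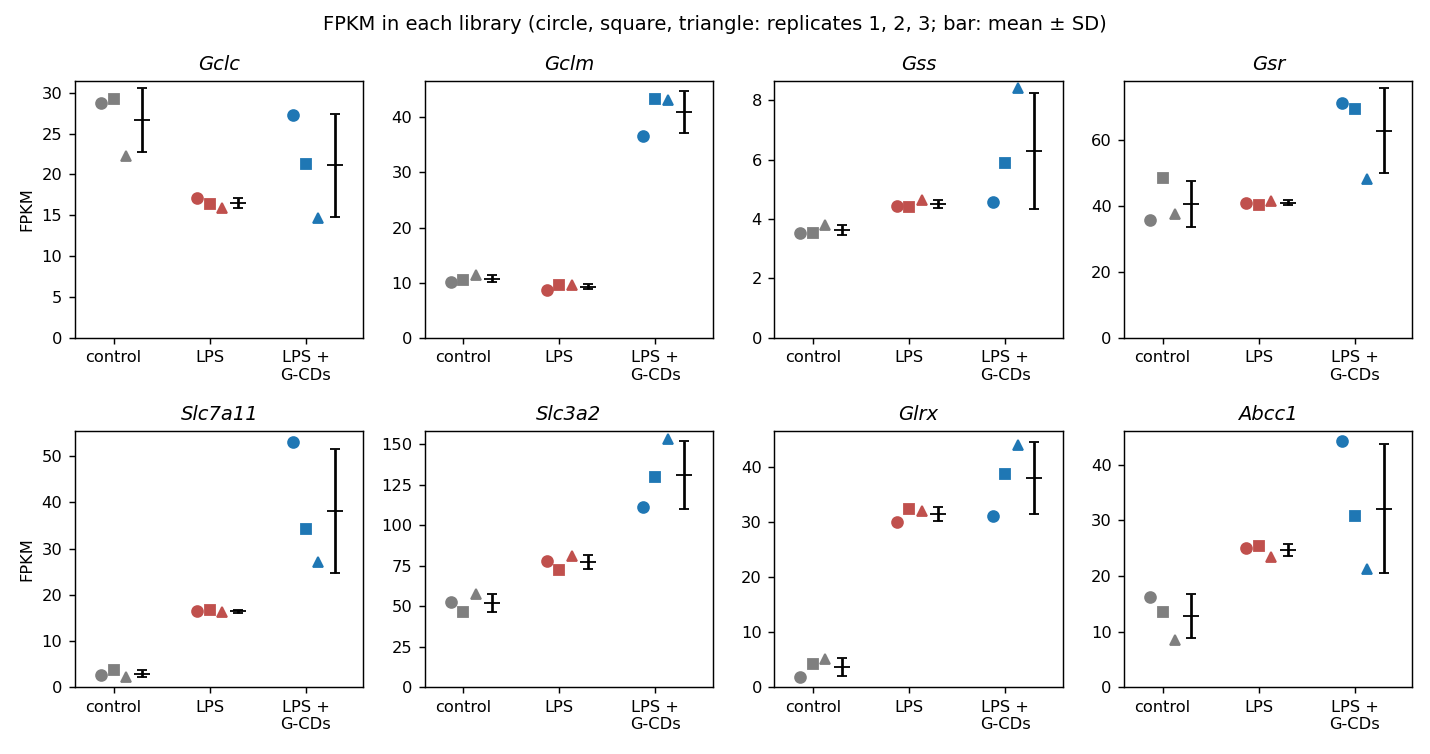
FPKM of the 7 members and of Slc3a2 in each library of the control (grey), LPS (red) and LPS + G-CDs (blue) groups, with the mean ± SD beside the 3 replicates and a separate linear axis from 0 for each gene. Gclm lies between 36.7 and 43.4 in the LPS + G-CDs libraries and between 8.73 and 11.4 in all others, while Slc7a11 and Glrx leave their control range already with LPS.

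Gclm (ENSMUSG00000028124, chromosome 3, 122245557 to 122270732, plus strand), the modifier subunit that raises the affinity of the ligase for glutamate, had 10.2, 10.5 and 11.4 FPKM in the control libraries, 8.73, 9.63 and 9.48 with LPS, and 36.7, 43.4 and 43.1 with LPS + G-CDs. The LPS libraries all lay slightly under the control libraries and the LPS + G-CDs libraries lay far above both. The means were 10.7 ± 0.626, 9.28 ± 0.481 and 41.0 ± 3.79 FPKM (SD, n = 3). Gclm rose 4.42-fold from LPS to LPS + G-CDs, a log2 fold change of 2.03 (standard error, SE, 0.11, 95% interval 1.78 to 2.28, adjusted p = 9.6e-05). Against control it rose 3.82-fold (log2 fold change 1.84, adjusted p = 4.5e-06), whereas LPS alone gave a log2 fold change of -0.19 that did not pass (adjusted p = 0.23). Under TPM the latter was -0.46 and passed (adjusted p = 0.022). The rise with G-CDs passed under each of 21 alternative analyses, with log2 fold changes from 1.93 to 2.14 and adjusted p from 5.3e-05 to 0.0027. Gclm is among the genes the study picked out of these libraries for its heatmap, as read from that picture, so its rise is not independent evidence. Its exons share 296 of 6291 bases (4.7%) with Gm17494 on the opposite strand, to which 203 reads were assigned over the 9 libraries.

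Gclc (ENSMUSG00000032350, chromosome 9, 77754535 to 77794485, plus strand) encodes the subunit that carries the active site. Its FPKM was 28.8, 29.2 and 22.2 in control, 17.1, 16.4 and 15.9 with LPS, and 27.3, 21.3 and 14.6 with LPS + G-CDs. The LPS libraries lay under all control libraries, and the LPS + G-CDs libraries spanned both groups. Gclc fell with LPS from 26.7 ± 3.93 to 16.5 ± 0.641 FPKM (SD, n = 3). The log2 fold change was -0.66 (SE 0.21, adjusted p = 0.041). This call was lost, with adjusted p up to 0.12, without control replicate 1 or 2, without LPS replicate 1, 2 or 3, or without LPS + G-CDs replicate 2, and it passed in 12 of 21 alternatives. With G-CDs added to LPS, the log2 fold change was 0.30 (95% interval -0.18 to 0.77, adjusted p = 0.42).

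The ratio of Gclm to Gclc within a library, by FPKM, was 0.355, 0.361 and 0.515 in control, 0.509, 0.585 and 0.598 with LPS, and 1.34, 2.04 and 2.95 with LPS + G-CDs. Only the LPS + G-CDs libraries held more Gclm than Gclc per unit length. The mean ratio was 0.41 ± 0.0908, 0.564 ± 0.0479 and 2.11 ± 0.804 (SD, n = 3), a 3.56-fold difference of geometric means between LPS + G-CDs and LPS. Although the groups did not overlap, 3 libraries against 3 cannot give less than p = 0.1 in the two-sided exact permutation test, and that value was obtained (0.15 after adjustment over the 3 comparisons). The 1.39-fold difference between LPS and control, with overlapping groups, had an exact permutation p of 0.2 (adjusted 0.2).

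**Figure D2:**
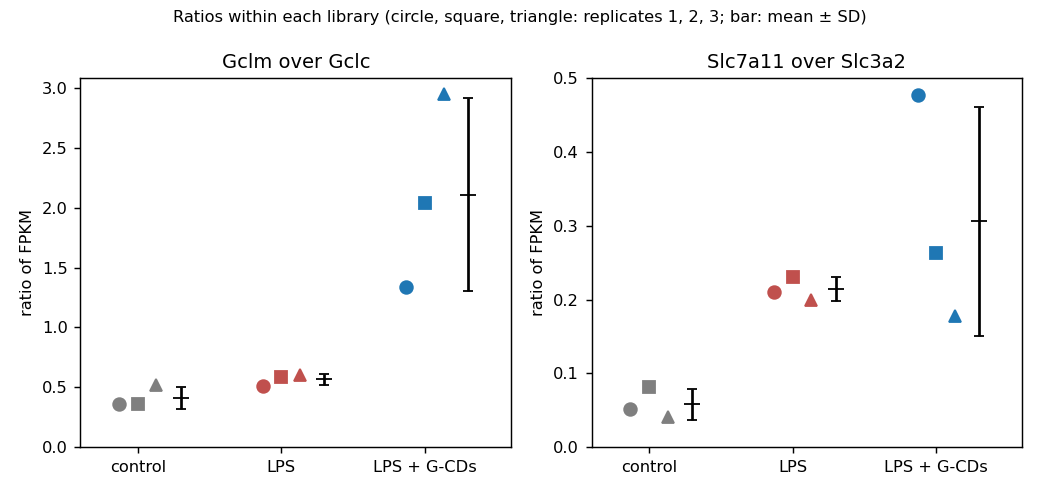
Ratio of FPKM within each library for Gclm over Gclc (left) and Slc7a11 over Slc3a2 (right), with the mean ± SD of 3 replicates per group on linear axes from 0. Gclm over Gclc is 1.34 to 2.95 in the LPS + G-CDs libraries and at most 0.598 elsewhere, whereas Slc7a11 over Slc3a2 overlaps between LPS and LPS + G-CDs. The gene-length trend was not removed from these ratios.

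Gss (ENSMUSG00000027610, chromosome 2, 155563181 to 155592810, minus strand), the second enzyme of the synthesis, had the lowest mean FPKM of the members with LPS and with LPS + G-CDs. Its FPKM was 3.52, 3.54 and 3.81 in control, 4.43, 4.42 and 4.65 with LPS, and 4.56, 5.9 and 8.4 with LPS + G-CDs. The LPS + G-CDs libraries spread widely, and their lowest fell inside the range of the LPS libraries. Against control, Gss rose 1.74-fold with LPS + G-CDs (log2 fold change 0.62, SE 0.18, adjusted p = 0.03), but neither LPS against control (0.25, adjusted p = 0.32) nor LPS + G-CDs against LPS (0.37, adjusted p = 0.33) passed. The call was lost, with adjusted p up to 0.081, without any 1 of the control or LPS libraries or without LPS + G-CDs replicate 2, and under TPM (0.29, adjusted p = 0.16), and it passed in 10 of 20 alternatives. Exons of Gss share 395 of 5915 bases (6.7%) with Acss2 on the opposite strand, and the preparation is not stated to keep strand, so reads there cannot be told apart. Acss2 itself was lower in LPS + G-CDs than in control cells (log2 fold change -0.41, adjusted p = 0.0388).

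Gsr (ENSMUSG00000031584, chromosome 8, 33652523 to 33698163, plus strand) had the highest mean FPKM of the members in every group. Its FPKM was 35.7, 48.5 and 37.3 in control, 40.9, 40.2 and 41.5 with LPS, and 71.0, 69.2 and 47.9 with LPS + G-CDs. LPS and control had nearly the same mean, and each library given G-CDs exceeded those given LPS alone, with replicate 3 the closest. The log2 fold change was 0.03 for LPS against control (95% interval -0.38 to 0.43) and 0.58 for LPS + G-CDs against LPS (95% interval 0.18 to 0.99, adjusted p = 0.25), so the latter did not pass over all genes. With an unadjusted p of 0.01 in limma and means that differed 1.53-fold, the latter lay close to the paper's threshold but did not meet it. Against control Gsr passed with a log2 fold change of 0.61 (adjusted p = 0.036), although the libraries overlapped. That call held in 8 of 21 alternatives and was lost, with adjusted p up to 0.14, without control replicate 1 or 3, LPS replicate 1, 2 or 3, or LPS + G-CDs replicate 1 or 2. It was also lost under TPM, where the log2 fold change was 0.18 (adjusted p = 0.64), under quantile scaling, where it was 0.38 (adjusted p = 0.29), and with the gene-length trend removed, where it was 0.55 (adjusted p = 0.097). In LPS + G-CDs replicate 3, Gsr lay 0.223 above the LPS mean on the log2 scale, while genes within 10% of its length had a median of 0.325. With the length trend removed, that library lay under all LPS libraries (5.377 against 5.466 to 5.477 on the log2 scale).

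Slc7a11 (ENSMUSG00000027737, chromosome 3, 49892526 to 50443614, minus strand), the cystine transporter itself, rose with LPS and lay higher still with G-CDs. Its FPKM was 2.67, 3.8 and 2.34 in control, 16.4, 16.8 and 16.2 with LPS, and 52.9, 34.3 and 27.0 with LPS + G-CDs. None of the 3 groups overlapped, and the LPS + G-CDs libraries differed from each other by more than the LPS libraries did. LPS raised Slc7a11 5.61-fold, from 2.93 ± 0.766 to 16.4 ± 0.297 FPKM (SD, n = 3). Its log2 fold change was 2.17 (SE 0.23, adjusted p = 0.00014), a call kept in 21 of 21 alternatives. LPS + G-CDs gave 38.1 ± 13.4 FPKM, 13 times the control mean (log2 fold change 3.28, adjusted p = 1.3e-05). Relative to LPS alone the log2 fold change was 1.11 (SE 0.23, 95% interval 0.58 to 1.64). By this log2 fold change and an unadjusted p of 0.001 in limma it met the paper's threshold, but not the adjusted threshold (adjusted p = 0.11). The means differed 2.32-fold.

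The partner chain Slc3a2, which also serves other amino acid transporters, had 52.6, 46.6 and 57.6 FPKM in control, 77.9, 72.6 and 81.2 with LPS, and 111, 130 and 153 with LPS + G-CDs. It stepped up in both stages without overlap between groups. It rose with LPS by a log2 fold change of 0.56 (adjusted p = 0.021), and LPS + G-CDs differed from LPS by 0.75 (SE 0.15, adjusted p = 0.10), which met the paper's threshold alone. The rise with LPS was lost, with adjusted p up to 0.084, without control replicate 2 or LPS replicate 1, 2 or 3, and under TPM, where it was 0.30 (adjusted p = 0.055). The comparison of LPS + G-CDs with LPS passed under 3 settings, which were leaving out LPS + G-CDs replicate 1 (adjusted p = 0.037), removal of the gene-length trend (0.67, adjusted p = 0.039) and that removal together with a replicate block (adjusted p = 0.047). The ratio of Slc7a11 to Slc3a2, chosen after its values were seen, was 0.0576 ± 0.0213 in control, 0.214 ± 0.0162 with LPS and 0.306 ± 0.155 with LPS + G-CDs (SD, n = 3). It differed 3.86-fold between LPS and control without overlap (exact permutation p = 0.1, the smallest possible, adjusted 0.15) and 1.32-fold between LPS + G-CDs and LPS with overlap (exact permutation p = 0.5, adjusted 0.5). The LPS + G-CDs ratios of 0.478, 0.263 and 0.177 fell from replicate 1 to 3, as the values of the longest genes did. With the gene-length trend removed, LPS + G-CDs differed from LPS by 1.46 for Slc7a11 and 0.67 for Slc3a2 on the log2 scale. The ratio was not recomputed under that setting, and a link was not tested.

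Abcc1 (ENSMUSG00000023088, chromosome 16, 14361558 to 14475737, plus strand), the export pump, had 16.3, 13.5 and 8.46 FPKM in control, 25.1, 25.4 and 23.5 with LPS, and 44.3, 30.8 and 21.2 with LPS + G-CDs. The LPS libraries lay above all control libraries, and the LPS + G-CDs libraries reached from under to well over the LPS range. LPS raised Abcc1 1.93-fold (log2 fold change 0.94, SE 0.28, adjusted p = 0.032). This call was lost, with adjusted p up to 0.094, without control replicate 2 or 3, LPS replicate 1, 2 or 3, or LPS + G-CDs replicate 2, and under TPM (0.72, adjusted p = 0.20), and it passed in 12 of 21 alternatives. Against control, LPS + G-CDs raised it 2.51-fold (log2 fold change 1.25, adjusted p = 0.011), which passed in 20 of 21 alternatives, TPM being the exception (0.86, adjusted p = 0.12). Between LPS + G-CDs and LPS the log2 fold change was 0.31 (95% interval -0.33 to 0.94, adjusted p = 0.52).

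Gene length moved with the values of Slc7a11 and Abcc1, whose models of 13922 and 15092 bases are longer than 97.3% and 97.9% of the tested genes. Relative to the LPS mean, Slc7a11 lay 1.628, 1.016 and 0.685 higher on the log2 scale in LPS + G-CDs replicates 1, 2 and 3, while the median of 216 genes within 10% of its length lay at 0.014, -0.384 and -0.674. Abcc1 lay at 0.82, 0.309 and -0.212 beside medians of 0.02, -0.427 and -0.816 over 187 genes. In each of these libraries both genes were therefore above the median of genes of like length. With the length trend of each library removed, the log2 fold change of LPS + G-CDs against LPS was 1.46 for Slc7a11 (SE 0.12, adjusted p = 0.001) and 0.68 for Abcc1 (SE 0.13, adjusted p = 0.053), so Slc7a11 passed under this setting and Abcc1 did not. For LPS against control, genes as long as Slc7a11 and Abcc1 had median log2 fold changes of 0.311 and 0.308. With the trend removed, that comparison gave 1.93 for Slc7a11 (adjusted p = 2.9e-06) and 0.68 for Abcc1 (adjusted p = 0.0027), against 2.17 and 0.94 as deposited. For Gclm, the LPS + G-CDs libraries lay at 1.875, 2.111 and 2.102 beside medians of -0.002, -0.087 and -0.212 over 1099 genes, and the trend was small beside its change.

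**Figure D3:**
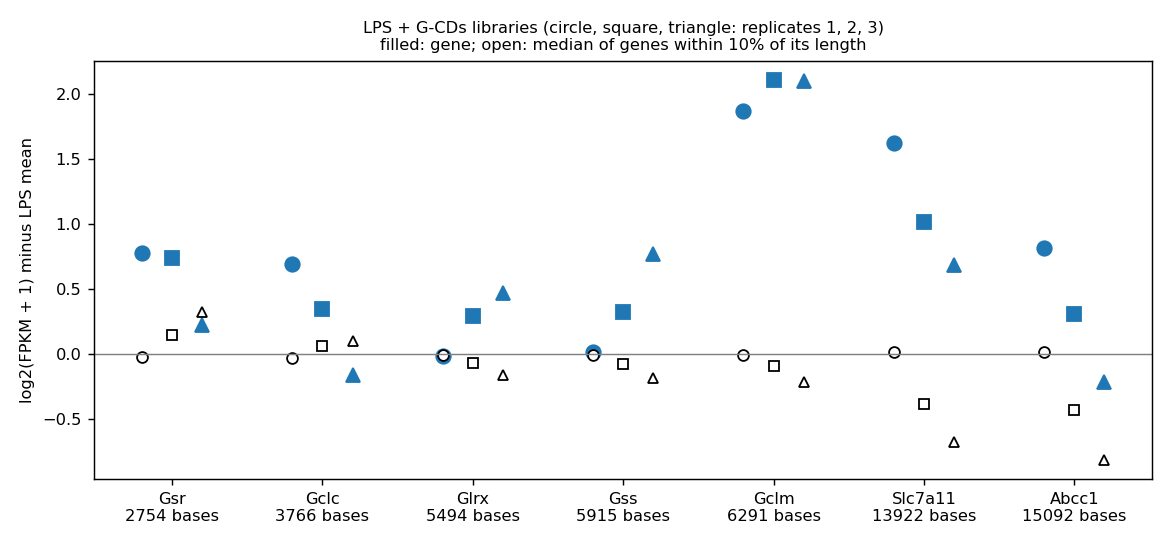
Difference of log2(FPKM + 1) from the LPS mean in each LPS + G-CDs library (circle, square and triangle for replicates 1, 2 and 3), for each member (filled) and for the median of tested genes within 10% of its length (open), with members ordered by length in bases. The open symbols separate most at Slc7a11 and Abcc1, where replicate 3 is at -0.674 and -0.816, and the filled symbols stay above them in all 3 libraries.

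Glrx (ENSMUSG00000021591, chromosome 13, 75839868 to 75850154, plus strand) had the largest LPS response of the members. Its FPKM was 1.94, 4.19 and 5.15 in control, 29.9, 32.3 and 31.9 with LPS, and 31.1, 38.7 and 43.9 with LPS + G-CDs. Control libraries were low and uneven, and the treated groups overlapped each other. LPS raised Glrx 8.35-fold, from 3.76 ± 1.65 to 31.4 ± 1.29 FPKM (SD, n = 3), or 2.83 on the log2 scale (SE 0.25, adjusted p = 4.8e-05). LPS + G-CDs cells had 37.9 ± 6.48 FPKM, 10.1 times control (log2 fold change 3.08, adjusted p = 3.3e-05), and both calls held in 21 of 21 alternatives. G-CDs added to LPS gave 0.25 (95% interval -0.33 to 0.83, adjusted p = 0.55).

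**Figure D4:**
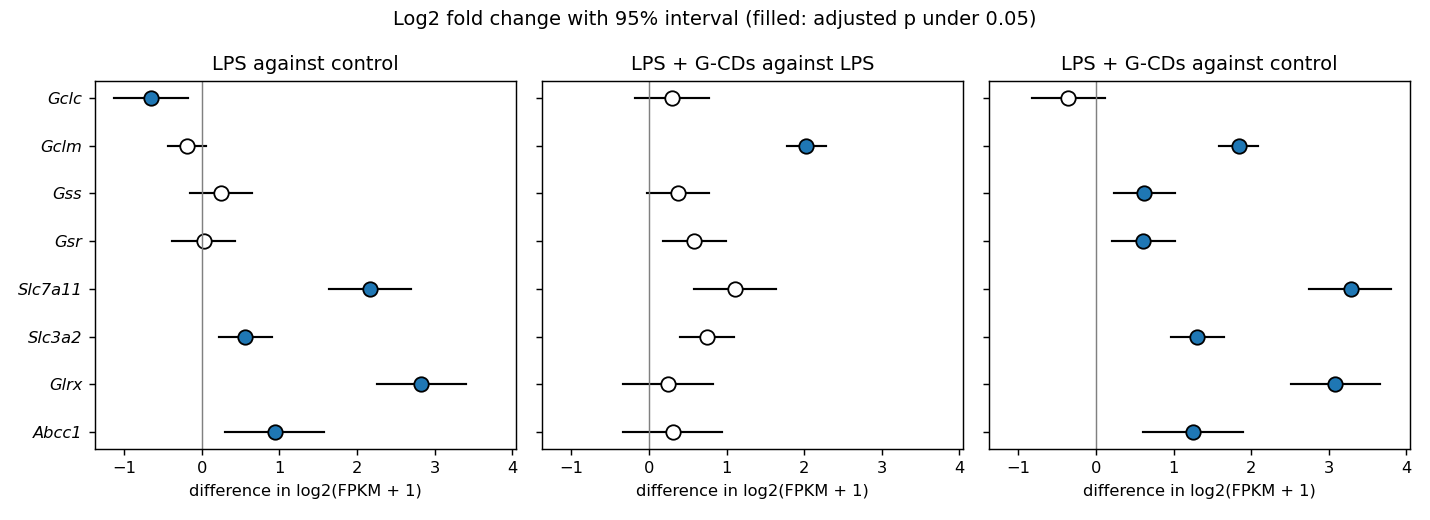
Difference in log2(FPKM + 1) with its 95% interval from limma for the 7 members and Slc3a2 in the 3 comparisons, filled where the adjusted p is under 0.05. LPS against control is filled for Gclc (-0.66), Slc7a11 (2.17), Slc3a2 (0.56), Glrx (2.83) and Abcc1 (0.94), and LPS + G-CDs against LPS for Gclm (2.03) alone.

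The order of FPKM levels changed with treatment, and the order within a group rests on the gene lengths used. In control cells Gsr led, followed by Gclc, then Abcc1 and Gclm, whose ranges overlapped, and then Glrx, Gss and Slc7a11, each overlapping its neighbour in that order. With LPS the order was Gsr, Glrx, Abcc1, Gclc, Slc7a11, Gclm and Gss, and only Gclc and Slc7a11 overlapped among neighbours. With LPS + G-CDs, Gsr had the highest mean, with its range apart from that of Gclm but overlapping that of Slc7a11, and Gss was last and apart from the rest. Neighbours among Gclm, Slc7a11, Glrx, Abcc1 and Gclc overlapped. By group mean, Gclm stood above 60.9% of the tested genes in control cells, 55.7% with LPS and 87.2% with LPS + G-CDs. Slc7a11 stood above 25.6%, 70.6% and 86.1%, and Glrx above 31.2%, 83.9% and 86.0%.

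Within the LPS + G-CDs group, the members did not deviate together. Replicate 1 was the highest of the 3 libraries for 4 members (Gclc, Gsr, Slc7a11 and Abcc1) and the lowest for the other 3 (Gclm, Gss and Glrx). Replicate 3 was the lowest for the first 4 and the highest for Gss and Glrx. The SD of Gclm was 3.79 on a mean of 41.0 FPKM, while that of Slc7a11 was 13.4 on 38.1 FPKM. Over the 9 libraries, Pearson's r of log2(FPKM + 1) was 0.916 between Slc7a11 and Glrx, 0.809 between Gclm and Gsr and -0.023 between Gclc and Gclm, given as a description of libraries that share treatment and depth.

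The genes whose pattern over the 9 libraries was most like that of each member were named by the highest Pearson's r of log2(FPKM + 1) among all tested genes, again as a description. For Gclm these were Srxn1 (sulfiredoxin, 0.997), Hmox1 (heme oxygenase-1, 0.985) and Esd (0.959). For Slc7a11 they were Slc1a4 (a neutral amino acid transporter, 0.984), Stx11 (0.979) and Cd274 (the ligand PD-L1, 0.978). For Glrx they were Herpud1 (0.999), Spryd7 (0.997) and Fosl1 (0.996). Patterns most like the other members were those of Creb3l2, Herc3 and Lrp8 for Gclc, of Emc4, Caml and Oas1c for Gss, of Gm12666, Mdm1 and the microRNA gene Mir6407 for Gsr, and of Tmcc2, Usp47 and Hsf2 for Abcc1.

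Other genes that supply cystine and cysteine passed in part. Of 16 listed, 11 were tested, and 5 rose and 1 fell with LPS, with a median log2 fold change of 0.56. Over all tested genes 15.8% were higher and 15.6% lower, with a median of 0.016. The risers included Cth, the enzyme that makes cysteine from cystathionine, at 1.27 ± 0.143 FPKM in control, 10.2 ± 0.825 with LPS and 11.7 ± 0.904 with LPS + G-CDs (log2 fold change 2.31 with LPS, adjusted p = 1e-06). The others were Mat2a (0.82), Slc38a1 (0.74), Slc3a2 (0.56) and Slc1a4 (0.45), while the glutamate dehydrogenase gene Glud1 fell by 0.50 on the log2 scale. With G-CDs added to LPS, 0 of the 11 passed the adjusted threshold in limma, 1 (Slc3a2) met the paper's threshold and the median was -0.01, where 0.25% and 1.24% of all tested genes were higher by these thresholds. Against control, LPS + G-CDs raised Cth, Slc3a2 and Slc1a4 and lowered Glud1, beside 12.8% higher and 12.4% lower over all tested genes.

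Of 11 listed genes of the gamma-glutamyl cycle and glutathione breakdown, 8 were tested, and 5 rose and 0 fell with LPS, beside 15.8% higher and 15.6% lower over all tested genes. Their median log2 fold change was 0.51. Chac1, which cleaves glutathione inside the cell, rose from 3.15 ± 0.377 to 23.7 ± 1.25 FPKM (SD, n = 3; log2 fold change 2.58, adjusted p = 1e-06) and stood at 29.3 ± 3.64 FPKM with LPS + G-CDs. The dipeptidase genes Dpep2 (1.57) and Cndp2 (0.63), Ggt7 (0.57) and the aminopeptidase gene Lap3 (0.44) rose as well. With G-CDs added to LPS, 0 of 8 passed, where 0.25% of all tested genes were called higher, and Dpep2 met the paper's threshold in the lower direction (log2 fold change -0.87, adjusted p = 0.066). Dpep2 passed the filter on low values only through the LPS group, where it was high (1.94 to 2.2 FPKM, beside 0 to 0.0691 in control and 0.482 to 1.07 with LPS + G-CDs), so its values are a description, and without it 4 of 7 rose with LPS. Against control, LPS + G-CDs raised Chac1, Cndp2 and Lap3, beside 12.8% higher and 12.4% lower over all tested genes. Dpep2 was called higher too, again only as a description.

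The relatives of Glrx and Abcc1 differed from them in what passed. Glrx2, Glrx3 and Glrx5 passed in 0 of the 3 comparisons, with log2 fold changes for LPS against control of 0.10, 0.16 and -0.76. Of 6 other efflux pumps 3 were tested, and Abcc3 fell by 0.89 with LPS and by 0.82 with LPS + G-CDs against control on the log2 scale (adjusted p = 0.0011 and 0.002). Abcc3 passed the filter only through the control group, where it was high (1.11 to 1.52 FPKM, beside at most 0.317 in the other libraries), so its fall is a description. Abcc4 and Abcc5 passed in none of the comparisons. Over all tested genes, 15.8% were higher and 15.6% lower with LPS, and 12.8% and 12.4% with LPS + G-CDs against control. With G-CDs added to LPS, 0.25% were higher. These differences between genes were not tested.

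Among 8 regulators, 3 rose with LPS (Maff, log2 fold change 2.38, Atf4, 1.26, and Mafk, 0.95), 1 fell (Keap1, -0.38, adjusted p = 0.022), and 0 passed with G-CDs added to LPS. The shares over all tested genes were 15.8% higher and 15.6% lower with LPS, and 0.25% higher with G-CDs added to LPS. Nfe2l2, which encodes Nrf2, had 29.1 ± 7.6 FPKM in control, 30.5 ± 1.24 with LPS and 30.1 ± 1.51 with LPS + G-CDs, a log2 fold change of -0.02 for the last step (adjusted p = 0.96). Atf4 had 111 ± 20.1, 266 ± 7.56 and 328 ± 66.2 FPKM, with 0.28 for the last step (adjusted p = 0.40). Bach1, a repressor of antioxidant response elements, had 4.92 ± 1.92, 4.89 ± 0.364 and 4.15 ± 1.9 FPKM and passed in none of the comparisons. These are transcript levels, and proteins were not analysed here.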

How the data were processed

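RNA-seq was performed on 9 libraries of RAW264.7 cells (control, LPS and LPS + G-CDs, 3 each), grouped by the sample titles. The authors deposited FPKM values per gene with gene coordinates and lengths. The submitters' processing notes name the builds GRCm38 and mm10, and the aligner and counting tool are not given in the sources used here. The coordinates of 53548 of the 54495 genes shared with GENCODE mouse release 21 were identical, those of the 7 members included. All value columns were mapped to samples, and 0 belonged to none. Multiplied by gene length, the FPKM values were whole multiples of 1 read (tolerance 0.05 reads) for 100.0% of values, so reads per gene could be recovered. The library size behind the FPKM was 1.108 to 1.14 times the reads on genes in control, 0.929 to 0.936 times in LPS and 0.88 to 0.98 times in LPS + G-CDs libraries, so a scaling between libraries is built into the values.

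The 11585 genes that reached 1 FPKM in 3 or more of 9 libraries were fitted as log2(FPKM + 1) with limma 3.58.1 in R 4.3.3, in 1 model of the 3 groups (lmFit, eBayes with trend, two-sided), with Benjamini-Hochberg adjustment over all tested genes. Ratios of 2 genes were compared on the log2 scale by exact permutation tests with scipy 1.17.1. The limma step was tested on simulated data with known changes. The alternatives were a pseudocount of 0.1, no filter or a mean FPKM of at least 5, scaling to TPM, by median of ratios or by quantiles, fitting only the 6 libraries compared, voom on the reads, eBayes with no trend, a replicate block, removal of the gene-length trend, and each library left out. A block together with removal of the length trend was added after seeing the data.

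After subtraction of group means, same-numbered control and LPS libraries had r of 0.103, 0.137 and 0.113, each slightly over the 0.1 limit. The labels do not say what a number stands for. Libraries of different number reached r of 0.504 (control 2 and LPS + G-CDs 1), so r of this size does not show that the numbers pair libraries. The limit was not met between LPS and LPS + G-CDs (0.095, 0.08 and 0.143) or control and LPS + G-CDs (0.28, 0.057 and 0.653).

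The members, the gene lists and the motifs were chosen with earlier results of these data known. Named were the 7 members, Slc3a2, the regulators Nfe2l2, Keap1, Bach1 and Atf4, up to 5 called genes per list by size of change, and the 3 genes most correlated with each member. The cell type markers and the other glutaredoxins and efflux pumps were named outside this rule, after their values were seen. Of the 50-base words of the members' transcripts, at most 0.8% occurred in transcripts of other genes. Promoters came from RefSeq (GRCm38.p6).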

Additional observations from a re-analysis of the deposited data

How the results depend on the processing

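Of 501 tested values recomputed under the alternatives, 443 kept their direction and side of the threshold, 47 no longer passed, 7 newly passed, and 4 changed sign. These 4 are Gsr for LPS against control, which was near 0 and passed under no setting. Its log2 fold change of 0.03 became -0.24 under TPM, -0.13 under quantile scaling, -0.06 without control replicate 1 and -0.03 without control replicate 3, with a range of -0.06 to 0.16 when 1 library was left out. For LPS + G-CDs against LPS, the members passing were 1 (Gclm), 2 with the gene-length trend removed (Gclm and Slc7a11), and 3 (with Abcc1) when a replicate block was added to that setting after seeing the data. For LPS against control, 4 members became 2 without a filter (Slc7a11 and Glrx), while the log2 fold changes of Gclc (-0.66) and Abcc1 (0.94) stayed the same. Over all genes 3538 of 25079 then passed, against 3630 of 11585. For LPS + G-CDs against control, 6 became 3 under TPM (Gclm, Slc7a11 and Glrx). Leaving out 1 library gave 1 to 1, 2 to 4 and 4 to 6 members in these comparisons. A replicate block changed no member's call (1, 4 and 6 members).

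Under TPM the all-gene median shifted to -0.1381 for LPS + G-CDs against LPS, -0.224 for LPS against control and -0.3654 for LPS + G-CDs against control. TPM also changed the genes that passed the filter (14074, against 11585), so its counts differ in both scaling and gene set. LPS against control then had 1117 genes higher and 3268 lower, against 1827 and 1803, and 2 members higher and 2 lower, with Gclm newly passing at -0.46 and Abcc1 lost. LPS + G-CDs against control had 815 higher and 3420 lower, against 1488 and 1439. Quantile scaling gave 1633 and 2355 for LPS against control and 1309 and 1762 for LPS + G-CDs against control.

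The 57 genes passing for LPS + G-CDs against LPS ranged from 11 to 256 with 1 library left out (256 without LPS + G-CDs replicate 1) and were 92 with the length trend removed, 33 under TPM, and 25 with a pseudocount of 0.1 or with the 6 libraries alone. For LPS + G-CDs against control, the 6 libraries alone gave 1789 genes and the main setting 2927. The causes were not tested. Gss rests on 357 to 698 reads per library and Glrx in control replicate 1 on 200 reads, which limits their precision.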
